A study of Mus musculus with 12 samples.

Results

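MYC and the basic helix-loop-helix leucine zipper proteins that share its partner MAX form 1 network of transcription factors, and 9 genes of that network were followed here through mRNA, ribosome footprints and their ratio: *Myc*, *Max*, *Mxd1*, *Mxd3*, *Mxd4*, *Mxi1*, *Mnt*, *Mga* and *Mlx*. The genes were chosen by name, as a list and not by a cut on a measured value, with earlier results of these data known. All 9 were found among the 41255 genes of the mRNA table and the 10080 genes of the ribosome-protected fragment (RPF) table, and all 9 had enough counts to be tested in both and in translation efficiency (TE), the ratio RPF/mRNA.

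The data came from mouse lymphoid Ba/F3 cells, an established IL-3 dependent line that was transduced with a retroviral vector carrying human *RPL10*, either as wild type (WT) or with the R98S substitution found in T-cell leukemia. The study compared these genotypes to learn how a mutant ribosomal protein changes transcription and translation. Both genotypes also carried an shRNA against the endogenous *Rpl10*, and all cells received cycloheximide at 100 µg/ml for 5 min before lysis or RNA isolation. There were 3 RPL10 R98S clones (11, 13 and 35) and 3 RPL10 WT clones (28, 29 and 36), each with 1 mRNA library and 1 RPF library, 12 libraries in all. Each clone was a liquid culture grown from a single-cell colony, so a difference between genotypes is a difference between 3 and 3 clones of 1 line.

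The mRNA libraries held 6617457 to 23136595 reads and the RPF libraries 3477723 to 10883086. The mRNA library of WT clone 28 was the shallow one, where each read counted for 2.69 units of the normalized scale (0.784 to 0.860 for the remaining 5), so its low genes carry more counting error. Of 12 markers of a pro-B, IL-3 dependent line, 6 had a mean of at least 10 normalized counts, among them *Il3ra*, *Csf2rb* and *Cd79a*, and *Pax5* and *Rag1* were at 0 in all mRNA libraries. Of 6 mast cell and basophil markers 4 reached that level, with *Kit* at 0, and none of 4 T cell markers and 1 of 5 myeloid markers (*Lyz2*) did. The summed pro-B list ranged from 100806 to 122568 normalized counts in R98S and from 48090 to 93811 in WT clones, while the summed mast cell list ranged from 14024 to 17382 in R98S and from 23317 to 27775 in WT clones. Each sum rested on few genes: *Csf2rb* and *Csf2rb2*, close paralogs, led the first, and *Gata2*, at 11145 to 15300 in R98S and 20183 to 26448 in WT clones, nearly filled the second. The mast cell protease gene *Cpa3* lay on the other side, at 253 to 787 in R98S and 13.4 to 174 in WT clones. Both sums separated the genotypes in the same libraries as the MYC network values below, and their part in those values was not tested. *Rpl10* reads cannot be split between the vector and the endogenous gene, and *Rpl10* differed between genotypes by -0.42 in mRNA (adjusted p = 0.551) and -0.15 in RPF (adjusted p = 0.794) on the log2 scale.

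MYC binds DNA as a dimer with MAX at E-box sequences and activates transcription, much of it from genes for ribosome production, nucleotide synthesis and cell cycle entry. The MXD proteins (MXD1, MXD3, MXD4 and MXI1) and MNT also need MAX, bind the same sites and repress by recruiting SIN3 and histone deacetylases, so that MAX is shared between an activating and a repressing arm. MGA is a very large MAX partner found in a repressive Polycomb complex, and MLX is a MAX-like protein that pairs with some MXD proteins, MNT and the MondoA and ChREBP factors. In lymphoid cells *MYC* is an oncogene, and its mRNA and protein are both short-lived.

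The canonical E-box, CACGTG, reads the same on both strands, and 4 of the 8 network genes with an entry in the RefSeq promoter set (250 bases before to 50 after an annotated start, GRCm38.p6) held it there. Of all 27025 genes in that set, 8.09% held it. The 4 sites are shown because they are the sequence that the encoded proteins themselves recognize, each as 30 bases on the gene's strand with the E-box in capitals.
*Mxd4*, chr5:34187912-34187941, minus strand, E-box beginning 219 bases before the start: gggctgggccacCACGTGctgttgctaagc
*Mnt*, chr11:74830789-74830818, plus strand, E-box beginning 123 bases before the start: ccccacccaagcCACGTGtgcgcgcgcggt
*Mlx*, chr11:101087238-101087267, plus strand, E-box beginning 40 bases before the start: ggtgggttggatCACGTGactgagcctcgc
*Max*, chr12:76962234-76962263, minus strand, E-box beginning 3 bases before the start: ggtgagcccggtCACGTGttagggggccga
The letters CACGTG were not in the windows of *Mxd1*, *Mxd3*, *Mxi1* or *Mga*, and *Myc* had no entry. Binding was not measured, so a match is a description of sequence only.

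*Myc* (ENSMUSG00000022346.15, chr15:61985391-61990374, plus strand, GRCm38), the activating member and the oncogene of the network, was lower in RPL10 R98S clones both in mRNA and in footprints. R98S clones 11, 13 and 35 had *Myc* mRNA of 3104, 2956 and 6991 normalized counts, and WT clones 28, 29 and 36 had 8019, 9399 and 9816. All 3 R98S clones lay under all 3 WT clones, but clone 35 stood well above the other R98S clones and close to the WT range. The means were 4350.5 ± 2288 (SD, n = 3) in R98S and 9078 ± 941 (SD, n = 3) in WT, a 2.09-fold difference. *Myc* mRNA fell by 1.18 on the log2 scale (SE 0.30, adjusted p = 0.0691, limma with Benjamini-Hochberg adjustment over 11344 genes, called under 0.1). In a bulk culture, fewer cells with the transcript and less transcript per cell cannot be told apart, here and in every value that follows.

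The *Myc* footprints followed the same order of genotypes with a wider gap. R98S clones 11, 13 and 35 had 1692, 2097 and 5066 normalized footprint counts and WT clones 28, 29 and 36 had 9557, 6464 and 7184, again without overlap and again with clone 35 as the highest of the R98S clones. The means were 2952 ± 1842 (SD, n = 3) and 7735 ± 1618 (SD, n = 3), a 2.62-fold difference. *Myc* footprints fell by 1.54 on the log2 scale (SE 0.35, adjusted p = 0.0380, limma with Benjamini-Hochberg adjustment over 9580 genes). At least 2502 footprint reads and 2986 mRNA reads lay behind each library's value, so counting error is small beside the spread between clones. An exact permutation test of the 3 against 3 clones gave a two-sided p of 0.1 for mRNA and for footprints, the smallest it can give.

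The *Myc* calls depended on single clones, and the mRNA call also on the test, being lost without the variance trend (adjusted p = 0.145) and with edgeR (adjusted p = 0.103). The mRNA call was lost without R98S clone 11 (adjusted p = 0.259), R98S clone 13 (0.254), WT clone 29 (0.134) or WT clone 36 (0.201), and was kept without R98S clone 35, where the log2 difference became -1.58 (adjusted p = 0.00486, limma). The footprint call was lost without R98S clone 11 (adjusted p = 0.138), R98S clone 13 (0.175) or WT clone 28 (0.112). In each of these fits the difference stayed negative, from -1.58 to -0.96 in mRNA and from -2.02 to -1.23 in footprints.

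*Max* (chr12:76937269-76962201, minus strand), the obligate partner of MYC, MXD and MNT proteins, gave mRNA values of 3466, 2993 and 3796 normalized counts in R98S clones 11, 13 and 35, against 2529.6, 1372 and 2249 in WT clones 28, 29 and 36. The R98S clones were all above the WT clones, and WT clone 29 was the lowest of the 6. The log2 difference was 0.78 (SE 0.24) with an adjusted p of 0.111 by limma, above the threshold of 0.1 and so not called. The median gene of chromosome 12 lay 0.23 log2 units under its mean over the 6 clones in the mRNA of WT clone 29. With chromosome medians removed, the *Max* difference was 0.71 (adjusted p = 0.0852), and without WT clone 29 it was 0.51 (adjusted p = 0.202, limma). The *Max* mRNA difference also passed with estimated library weights (0.72, adjusted p = 0.0197), with DESeq2 (0.73, adjusted p = 0.0467) and without WT clone 28 (0.95, adjusted p = 0.0487), and in no other fit. *Max* footprints were 594, 470.2 and 517 in R98S and 513, 236 and 420.4 in WT clones, which overlap, with a log2 difference of 0.50 (SE 0.27, adjusted p = 0.328, limma).

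**Figure D1:**
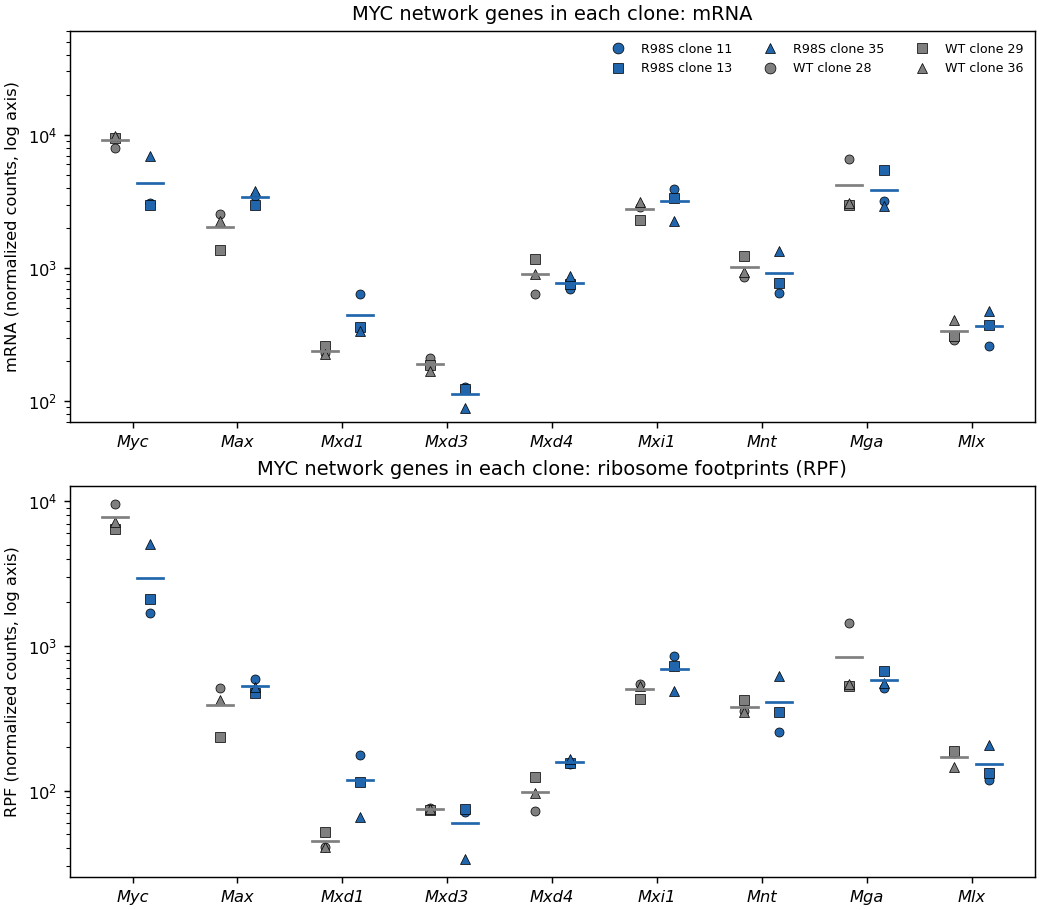
Normalized counts (log axis) of the 9 MYC network genes in mRNA (top) and ribosome footprints (bottom), with 1 point for each of the 6 clones and a bar at the mean of each genotype. *Myc* is lower in the 3 R98S clones than in the 3 WT clones in both panels, with R98S clone 35 nearest to WT, and *Mxd1* is higher.

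Among the repressing partners, *Mxd1* (chr6:86647042-86669161, minus strand), which rises as hematopoietic cells differentiate, was the one with a footprint call. Its footprints were 175, 115 and 65.5 normalized counts in R98S clones 11, 13 and 35, against 41.1, 52.1 and 40.9 in WT clones 28, 29 and 36. The R98S clones spread widely, with clone 35 again the nearest to WT, yet none reached down into the WT range. The means were 119 ± 55.1 (SD, n = 3) and 44.7 ± 6.40 (SD, n = 3), a 2.66-fold difference that rests on 31 to 330 reads per library. *Mxd1* footprints rose by 1.29 on the log2 scale (SE 0.35, adjusted p = 0.0673, limma). The call was lost without R98S clone 11 (adjusted p = 0.247), R98S clone 13 (0.232), WT clone 28 (0.155) or WT clone 36 (0.170), with differences from 0.95 to 1.66 over the 6 fits that leave out a clone. *Mxd1* mRNA was 638, 361 and 338 in R98S and 231, 261 and 227 in WT clones, without overlap, and its difference of 0.83 (SE 0.27) did not pass the test (adjusted p = 0.134, limma). DESeq2 on whole reads recovered from the deposited values gave 0.89 and an adjusted p of 0.0402 for the same *Mxd1* mRNA values.

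*Mxd3* (chr13:55325168-55329823, minus strand), the MXD gene known for expression in dividing cells, had its mRNA on the other side. Values were 129, 123 and 88.5 normalized counts in R98S and 212, 187 and 168 in WT clones, and the R98S clones all lay under the WT clones. The log2 difference of -0.75 (SE 0.26) did not pass (adjusted p = 0.158, limma). Footprints were 70.7, 74.6 and 33.6 in R98S and 75.5, 72.9 and 75.1 in WT clones, so that only R98S clone 35, with 20 reads, stood apart (difference -0.40, SE 0.33, adjusted p = 0.527). *Mxd3* shares 105 exon bases with *Prelid1* on the opposite strand, which reached 7596 normalized counts, and whether counting used strand is not given in the sources used here, so part of the *Mxd3* mRNA value is uncertain.

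*Mxd4* (chr5:34173883-34187720, minus strand), a repressing partner abundant in resting cells, gave overlapping mRNA values of 698, 758 and 877 in R98S and 634, 1175 and 899 in WT clones (log2 difference -0.18, SE 0.24, adjusted p = 0.757, limma). *Mxd4* shares 514 exon bases with *Gm42846*, an antisense gene not listed under that name among the 41255 genes with mRNA values. The mRNA value of *Mxd4*, and the TE below that divides by it, therefore carry the same uncertainty over strand. Its footprints were 152, 155 and 166 in R98S clones and 72.6, 124 and 96.2 in WT clones. The R98S values lay close to each other and above all WT values, while the WT clones spread more widely. The footprint difference was 0.72 (SE 0.24, adjusted p = 0.130, limma) and did not pass, except without WT clone 29, where it was 0.91 (adjusted p = 0.0779), and with estimated library weights, where it was 0.70 (adjusted p = 0.0503).

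*Mxi1* (chr19:53310518-53375810, plus strand), the most abundant of the repressing members, had mRNA of 3930.4, 3352 and 2273 normalized counts in R98S and 2898, 2284 and 3146 in WT clones. Its footprints were 849.8, 727 and 485 in R98S and 545, 427 and 529.7 in WT clones. In both, R98S clone 35 was the lowest R98S clone and lay inside the WT range, and neither difference passed (0.17, SE 0.23, adjusted p = 0.747 in mRNA and 0.43, SE 0.23, adjusted p = 0.325 in footprints, limma). Without R98S clone 35 the *Mxi1* footprint difference was 0.66 and passed (adjusted p = 0.0875). *Mnt* (chr11:74830920-74845725, plus strand), the broadly expressed repressing partner, gave 655, 776 and 1344 in R98S and 865, 1229 and 938 in WT mRNA, with R98S clone 35 the highest of all 6. *Mnt* footprints were 253, 352 and 623 in R98S and 356, 423 and 352 in WT clones, and the differences were -0.18 (SE 0.28, adjusted p = 0.785) in mRNA and 0.02 (SE 0.29, adjusted p = 0.975) in footprints. Within these standard errors a change of either sign could not be resolved for *Mnt*.

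In the outer branches of the network, *Mga* (chr2:119897228-119969581, plus strand) had mRNA of 3209, 5413 and 2932 normalized counts in R98S and 6614, 2998 and 3062 in WT clones, so R98S clone 13 and WT clone 28 were high and the other 4 lay close together. *Mga* footprints were 511, 670.5 and 551 in R98S and 1435, 526 and 544 in WT clones, with WT clone 28 again the highest. The median gene of chromosome 2 lay 0.28 log2 units over its mean in the mRNA of R98S clone 13, and chromosome 11, which holds *Mnt* and *Mlx*, lay 0.27 over it in the same clone. The *Mga* differences were -0.08 (SE 0.33, adjusted p = 0.929) in mRNA and -0.37 (SE 0.34, adjusted p = 0.575) in footprints by limma.

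*Mlx* (chr11:101087277-101092207, plus strand) gave overlapping mRNA values of 259.6, 373 and 477 in R98S and 290.0, 309 and 404 in WT clones, and overlapping footprints of 118, 132 and 208 in R98S and 182, 187 and 145 in WT clones. Its differences were 0.12 (SE 0.27, adjusted p = 0.870) in mRNA and -0.20 (SE 0.25, adjusted p = 0.703) in footprints. *Mlx* shares 385 exon bases with *Psmc3ip* on the opposite strand, which reached 271 normalized counts. That makes part of the *Mlx* mRNA value uncertain in the same way as for *Mxd3*.

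Over the network, 1 of 9 genes was called in mRNA (*Myc*, lower), against 6.94% of all genes tested (3.03% higher and 3.91% lower in R98S). In footprints 2 of 9 were called (*Myc* lower, *Mxd1* higher), against 7.76% of all genes tested (3.13% higher and 4.62% lower). At an unadjusted p under 0.05 there were 4 of 9 in mRNA, against 17.9% of all genes tested, and 3 of 9 in footprints, against 20.3%. With estimated library weights 4 of 9 were called in mRNA and 3 of 9 in footprints, in fits that called 26.1% and 18.8% of all genes tested. The R98S and WT values did not overlap for 4 of 9 genes in mRNA (*Max* and *Mxd1* higher, *Myc* and *Mxd3* lower), where 23.5% of all genes tested showed no overlap, and for 3 of 9 in footprints (*Mxd1* and *Mxd4* higher, *Myc* lower), where 25.3% did. The median log2 difference of the 9 was -0.08 in mRNA and 0.02 in footprints, beside 0.01 in each for all genes tested, with 4 positive and 5 negative in mRNA and 5 positive and 4 negative in footprints. Genes of 1 list are not replicates of a genotype, and these counts describe the list only.

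**Figure D2:**
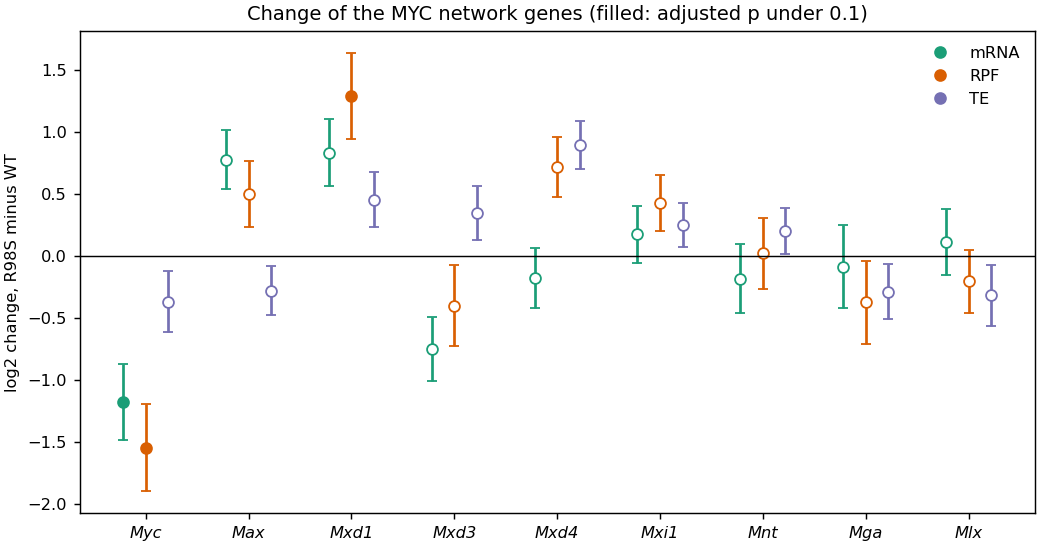
Log2 change (R98S minus WT) of the 9 MYC network genes in mRNA, RPF and TE, with bars of 1 SE from limma and filled points where the adjusted p was under 0.1. Filled points are *Myc* in mRNA (-1.18) and RPF (-1.54) and *Mxd1* in RPF (1.29).

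Footprints per mRNA were compared clone by clone, because each clone gave both libraries. None of the 9 genes was called in TE by limma with Benjamini-Hochberg adjustment, where 2 of 9043 genes (0.0221%) were, and 1 of the 9, *Mxd4*, had an unadjusted p under 0.05, as 7.85% of all genes tested did. The DESeq2 interaction on recovered reads, which called 0.0663% of all genes tested, and that of edgeR also called none of the 9. The TE values of *Mxd4* were 0.217, 0.205 and 0.190 in R98S clones 11, 13 and 35 and 0.115, 0.105 and 0.107 in WT clones 28, 29 and 36. The genotypes were far apart beside the spread within each, at 0.204 ± 0.0138 (SD, n = 3) and 0.109 ± 0.00488 (SD, n = 3), a 1.87-fold difference. The log2 difference was 0.90 (SE 0.19) with an unadjusted p of 0.000857 and an adjusted p of 0.517 by limma. It passed in 1 alternative, with estimated library weights (0.96, adjusted p = 0.0114), a fit that called 8.80% of all genes tested, and its adjusted p ranged from 0.215 to 1.00 over the others.

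*Myc* TE was 0.545, 0.709 and 0.725 in R98S and 1.19, 0.688 and 0.732 in WT clones. WT clone 28 alone was high and the other 5 clones lay between 0.545 and 0.732, so that the lower footprints of *Myc* were not accompanied by a called difference in TE (log2 difference -0.37, SE 0.25, adjusted p = 0.696, limma). That clone had the shallow mRNA library, and its mRNA and footprint deviations correlated least, at 0.218. Its TE also stood apart for genes outside the network, above the other clones for *Ptbp1* (1.99 against 0.755 to 0.824) and below them for *Cdk9* (0.351 against 0.523 to 0.793). Whether its high value is particular to *Myc* was not tested. *Mxd1* TE was 0.275, 0.318 and 0.194 in R98S and 0.178, 0.200 and 0.180 in WT clones, which overlap (0.45, SE 0.22, adjusted p = 0.635). The values did not overlap for *Mxi1*, with 0.216, 0.217 and 0.214 in R98S and 0.188, 0.187 and 0.168 in WT clones (0.25, SE 0.18, adjusted p = 0.699).

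*Max* TE lay on the other side without overlap, at 0.171, 0.157 and 0.136 in R98S and 0.203, 0.172 and 0.187 in WT clones (-0.28, SE 0.20, adjusted p = 0.699). With *Mxd4*, *Mxi1* and *Max*, 3 of 9 genes showed no overlap in TE, where 14.8% of all genes tested did (7.46% higher and 7.33% lower). TE of the remaining *Mxd3*, *Mnt*, *Mga* and *Mlx* overlapped between genotypes, with adjusted p from 0.690 to 0.745.

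**Figure D3:**
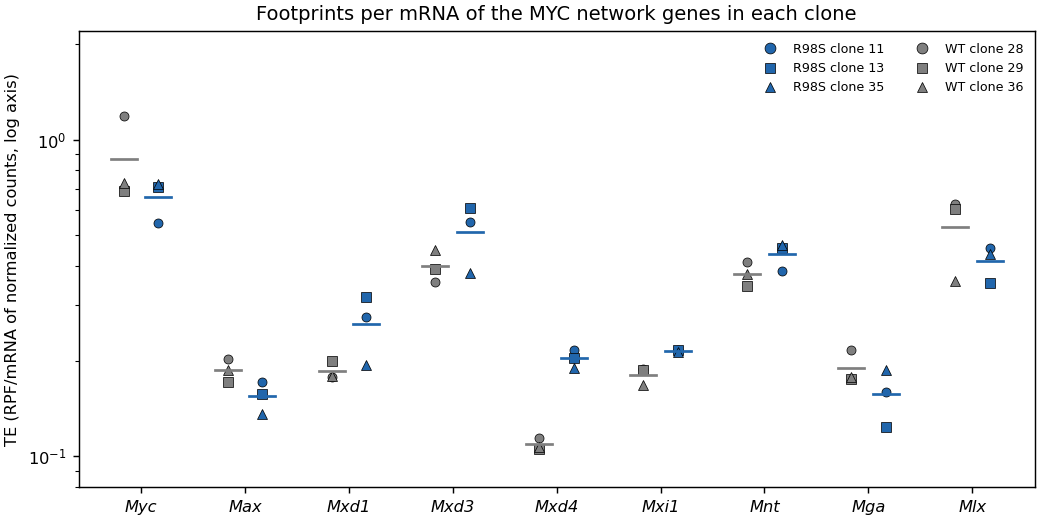
TE of the 9 MYC network genes, as RPF over mRNA normalized counts (log axis), with 1 point per clone and a bar at each genotype mean. *Mxd4* has its 3 R98S clones at 0.190 to 0.217 and its 3 WT clones at 0.105 to 0.115, while *Myc* has 1 WT clone, 28, at 1.19 and the other 5 clones between 0.545 and 0.732.

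To compare levels between genes, counts were divided by the length of the transcript with the longest coding sequence for mRNA and by the counted coding sequence for footprints. In WT clones *Myc* mRNA led with 3883 ± 402 normalized counts per kb (SD, n = 3), separated from *Mxi1* at 1057 ± 169 and *Max* at 1056 ± 311, which did not differ beyond their spread. A middle group of *Mga* (303), *Mxd4* (233), *Mnt* (220.2), *Mlx* (170.3) and *Mxd3* (142) followed with each neighbour overlapping the next, and *Mxd1* was the lowest, at 51.4 ± 3.92 per kb, separated from *Mxd3*. In R98S clones the top of that order closed up: *Myc* at 1861 ± 979 and *Max* at 1760.3 ± 208 per kb overlapped, *Mxi1* followed at 1212 ± 320.2, and *Mxd1* (95.5) overlapped *Mxd3* (85.4) at the bottom. *Myc* mRNA ranked between the 90.3 and 97.7 percentile of 10373 genes over the 6 clones.

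In footprints per kb of counted coding sequence, *Myc* at 5941 ± 1243 in WT clones was far above *Max* (928 ± 335) and *Mxi1* (607 ± 78.1). In R98S clones *Myc* at 2267 ± 1415 overlapped *Max* at 1255 ± 149. *Mxd1* was the lowest gene of the network in WT footprints, at 71.9 ± 10.3 per kb and not separated from *Mga* at 92.1 ± 57.3, and ranked 6 of 9 in R98S footprints, at 191 ± 88.7. Set per length against mRNA and ranked among 8770 genes of the same clone, *Mga* had few footprints for its mRNA, between the 6.04 and 20.0 percentile in all clones, while *Mxd1* lay between the 79.5 and 95.6 percentile. *Mxd4* stood at the 55.0 to 57.0 percentile in WT clones and at the 84.3 to 88.5 percentile in R98S clones.

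The balance between the arms was described as a ratio of counts per kb, with no test since it is a score over the listed genes. *Myc* mRNA over the summed mRNA of *Mxd1*, *Mxd3*, *Mxd4*, *Mxi1* and *Mnt* was 0.647, 0.698 and 1.96 in R98S clones 11, 13 and 35 and 2.06, 2.45 and 2.32 in WT clones 28, 29 and 36. In footprints the same ratio was 0.701, 0.960 and 2.76 in R98S and 6.12, 4.15 and 4.53 in WT clones. With the lengths used here, R98S clones 11 and 13 had less *Myc* than repressing members per kb in both assays, and R98S clone 35 had more. Within each assay every WT clone lay above all R98S clones. In mRNA the side of 1 depends on the length chosen: per kb of all exons, mean *Mxi1* mRNA was 437 instead of 1135, and *Myc* 2471 instead of 2872. The mean ratio was 2.07 times higher in WT than in R98S clones in mRNA and 3.35 times higher in footprints.

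The repressing sum itself was 2053, 1811 and 1524 normalized counts per kb in R98S and 1664, 1638 and 1809 in WT mRNA, which overlap. In footprints it was 1854, 1678 and 1411 in R98S and 1199, 1197 and 1218 in WT clones, which do not. Over *Max*, *Myc* mRNA was 0.744, 0.820 and 1.53 in R98S and 2.63, 5.69 and 3.63 in WT clones. As a share of all 9 genes per kb, *Myc* made up 24.0%, 24.3% and 43.2% of mRNA in R98S clones and 48.9%, 59.7% and 55.3% in WT clones. In footprints that share was 27.3%, 34.7% and 56.9% in R98S clones and 72.4%, 70.9% and 69.2% in WT clones.

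**Figure D4:**
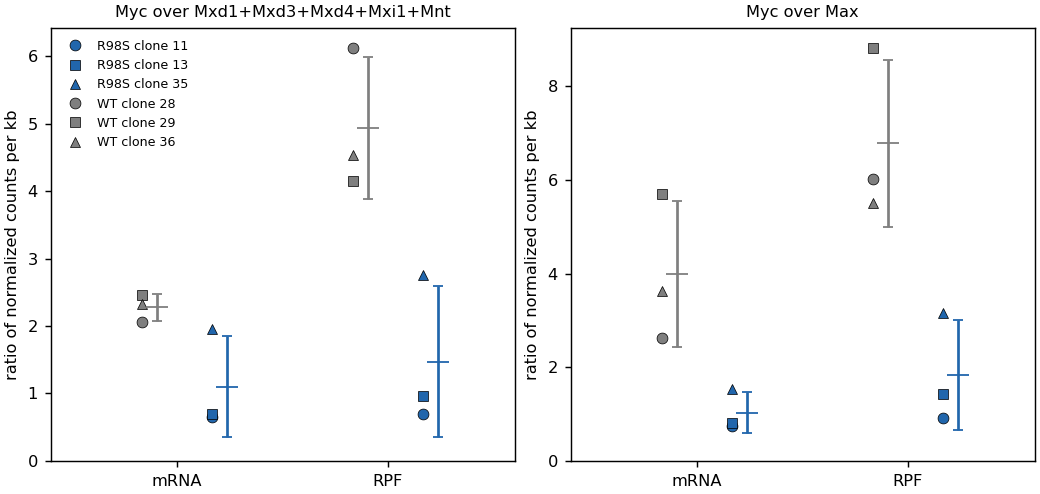
*Myc* over the summed repressing genes (left) and over *Max* (right), as ratios of normalized counts per kb in mRNA and RPF, with 1 point per clone and mean ± SD beside them. In each panel, all WT clones lie above all R98S clones within the same assay. R98S clone 35 is the R98S clone nearest to WT, at 1.96 in mRNA and 2.76 in RPF on the left.

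The genes whose pattern was most like that of *Myc* were found by the root mean square distance between log2 values over the 12 libraries, centred within each assay, among 9042 other genes. They were *F2rl2*, a receptor of the protease-activated family (distance 0.219), *Muc13*, a membrane mucin (0.226), and *Trim16*, a tripartite motif protein (0.248), where the log2 values of *Myc* itself had a root mean square of 0.828 about their mean. *F2rl2* mRNA was 1163, 1709 and 2683 normalized counts in R98S clones 11, 13 and 35, against 3631, 4489 and 5286 in WT clones 28, 29 and 36, with R98S clone 35 the highest R98S clone as for *Myc*. This likeness follows from choosing *F2rl2* by its distance over the same libraries. For *Mxd1*, whose own root mean square was 0.654, the nearest were *Stard5*, a lipid transfer protein (0.257), *Zkscan14*, a zinc finger protein (0.262), and *Ivns1abp* (0.274). *Ivns1abp* mRNA was 19889, 15087 and 14186 in R98S and 6209, 7219 and 6006 in WT clones. Within the network, *Mxi1* was the gene nearest to *Mxd1*, at 0.473, but ranked only 437 among the 9042 genes compared. *Mxd1* was the network gene farthest from *Myc*, at 1.46 (rank 8964).

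Beyond the 9 genes, 112 genes around the network were listed by role, of which 104 could be tested in mRNA. Of the relatives, *Mycn* and *Mlxip* (which encodes MondoA) could be tested, while *Mycl* was listed at 0 in all mRNA libraries and *Mlxipl* (ChREBP) reached at most 0.784 normalized counts. *Mycn*, the neuronal paralog of *Myc*, had mRNA of 1506, 2713 and 3050.2 in R98S and 5548, 3083 and 3751 in WT clones. All R98S clones lay under the WT clones, R98S clone 35 narrowly so, and the log2 difference of -0.79 (SE 0.30) did not pass (adjusted p = 0.194, limma), while DESeq2 called it. *Mycn* footprints overlapped, at 658, 1677 and 1525 in R98S and 2027, 1293 and 1898 in WT clones (-0.52, SE 0.33, adjusted p = 0.405).

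None of the 16 coactivators of MYC and none of the 10 SIN3 and histone deacetylase corepressors of MXD and MNT was called in mRNA, RPF or TE by limma. At an unadjusted p under 0.05 there were 1, 2 and 2 coactivators and 1, 2 and 0 corepressors in mRNA, RPF and TE, where 17.9%, 20.3% and 7.85% of all genes tested passed that cut. DESeq2, which called 11.3% of all genes tested in mRNA and in RPF, called 1 coactivator in RPF (*Kat2a*, named after its value was seen), and edgeR called none. In TE no gene of any of these lists was called by limma, DESeq2 or edgeR. Of the 15 tested genes that act on MYC protein stability, 2 were called in mRNA and 2 in footprints by limma, where 6.94% and 7.76% of all genes tested were. DESeq2 called 3 in mRNA (adding *Plk1*) and 2 in footprints. *Fbxw7*, the ubiquitin ligase subunit that recognizes phosphorylated MYC, had mRNA of 1317, 908 and 973 in R98S and 2059.7, 1440.1 and 1943 in WT clones, and fell by 0.77 on the log2 scale (SE 0.21, adjusted p = 0.0856, limma). Its footprints, at 56.4 to 174 normalized counts, did not pass (-0.61, adjusted p = 0.435). Of the 6 fits that leave out a clone, the *Fbxw7* call was kept in 1, without WT clone 29 (adjusted p = 0.0585), and lost in the other 5, with adjusted p from 0.107 without R98S clone 11 to 0.299 without R98S clone 13. It was also lost without the variance trend (adjusted p = 0.151) and with chromosome medians removed (-0.50, adjusted p = 0.193).

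*Trim32*, another ubiquitin ligase, rose in both assays. Its mRNA was 639, 721 and 522 in R98S and 247, 374 and 346 in WT clones (0.97, SE 0.23, adjusted p = 0.0516), and its footprints were 292, 389.7 and 238 in R98S and 166, 195 and 178 in WT clones (0.74, SE 0.22, adjusted p = 0.0915). *Stub1*, which encodes the chaperone-linked ligase CHIP, rose in footprints, with 634, 514 and 554 in R98S and 246, 360.2 and 332 in WT clones (0.87, SE 0.20, adjusted p = 0.0399). Its mRNA difference of 0.46 did not pass (adjusted p = 0.306). Without R98S clone 11 or 13 these 3 calls were all lost, with adjusted p of 0.207 and 0.221 for *Trim32* mRNA, 0.223 and 0.332 for *Trim32* footprints and 0.158 and 0.110 for *Stub1* footprints (limma). *Trim32* mRNA was also lost without WT clone 36 (0.125), *Stub1* footprints without WT clone 28 (0.111), and *Trim32* footprints without WT clone 28 (0.203), 29 (0.115) or 36 (0.198). With chromosome medians removed the *Trim32* calls were lost in mRNA (0.79, adjusted p = 0.103) and in footprints (0.56, adjusted p = 0.207), and the footprint call also without the variance trend (adjusted p = 0.128).

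Of 11 tested proteins that bind the *Myc* transcript, none was called in mRNA by limma (1 at an unadjusted p under 0.05, 1 by DESeq2 and 0 by edgeR). Of all genes tested in mRNA, limma called 6.94%, 17.9% had an unadjusted p under 0.05, and DESeq2 called 11.3%.

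Of 40 tested genes commonly induced by MYC, which include *Odc1*, *Ncl*, *Cdk4* and *Nop56*, none was called in mRNA by limma and 1 in footprints. Of all genes tested, limma called 6.94% in mRNA and 7.76% in footprints. In mRNA 5 of the 40 had an unadjusted p under 0.05, where 17.9% of all genes tested did. DESeq2, which called 11.3% of all genes tested in mRNA, called 3 (*Ncl*, *Tert* and *Apex1*) and edgeR 1. Those 3 were higher in R98S, with limma log2 differences of 0.82 for *Ncl*, 1.28 for *Tert* and 0.72 for *Apex1*. In mRNA 28 of the 40 had a positive difference and 12 a negative one, with a median of 0.17 beside 0.01 for all genes tested. In footprints 24 were positive and 16 negative, with a median of 0.06. By clone, the 40 genes were set against their own WT means in log2 mRNA. The median deviation was 0.17, 0.21 and 0.15 in R98S clones 11, 13 and 35. In WT clones 28, 29 and 36 it was 0.16, -0.30 and 0.10, so that WT clone 29 alone was low and the other 5 clones lay together. The footprint call was *Eno1*, a glycolytic enzyme, at 5614, 5479 and 5330.0 in R98S and 12424, 7748 and 9606 in WT clones (-0.83, SE 0.21, adjusted p = 0.0518). *Eno1* has a near-identical copy, *Eno1b*, so its counts are uncertain, and its call was lost without R98S clone 11 (adjusted p = 0.162), R98S clone 13 (0.189), WT clone 28 (0.109) or WT clone 36 (0.125).

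Of the genes listed here as repressed by MYC, 10 could be tested in mRNA and 9 in footprints. Whether MYC represses each of them in these cells was not tested. Limma called 1 in each assay, the same gene, where 6.94% and 7.76% of all genes tested were called. DESeq2, which called 11.3% of all genes tested in each assay, called 2 in mRNA (*Ndrg1* and *Id2*) and 3 in footprints (*Gadd45a* as well). EdgeR called 1 in each. In mRNA 4 were positive and 6 negative, with a median of -0.08 beside 0.01 for all genes tested. In footprints 4 were positive and 5 negative, with a median of -0.30. By clone, the median footprint deviation from the WT means was -0.44, -0.27 and -0.21 in R98S clones 11, 13 and 35. It was -0.07, -0.15 and 0.11 in WT clones 28, 29 and 36. The mRNA medians overlapped between genotypes. *Ndrg1*, a gene of stress and differentiation that MYC is known to repress, had mRNA of 1446, 455 and 935 in R98S and 2978, 4837 and 3807 in WT clones, and fell by 2.16 (SE 0.37, adjusted p = 0.0132, limma). Its footprints were 635, 174 and 574 in R98S and 2159, 2948 and 1834 in WT clones, and fell by 2.50 (SE 0.41, adjusted p = 0.0117). Every R98S clone lay under every WT clone in both assays, and the *Ndrg1* calls were kept in all 16 alternative fits of each assay. *Cdkn1a*, also in that list, differed by -0.07 in mRNA (adjusted p = 0.894).

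**Figure D5:**
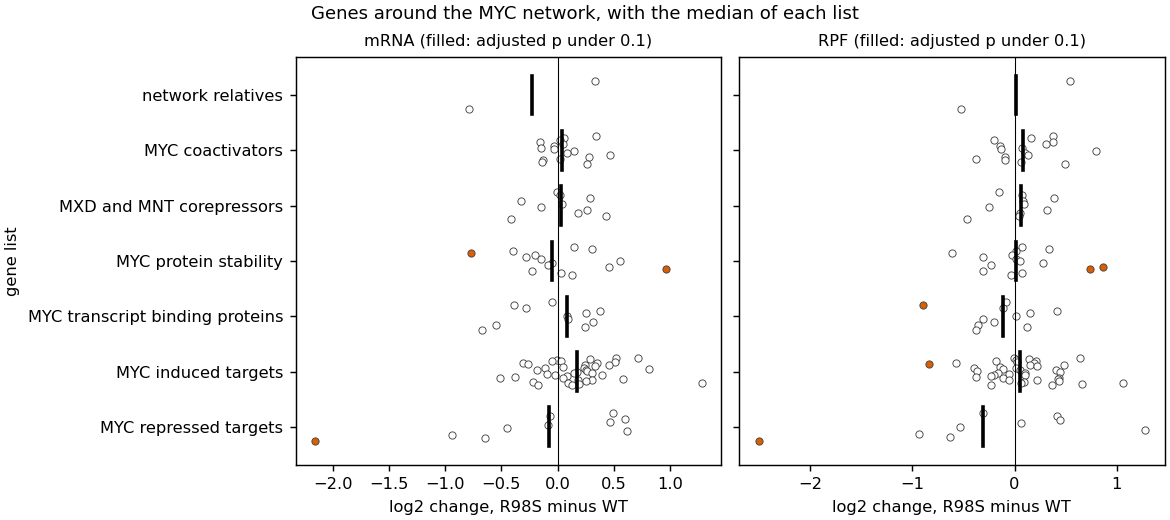
Log2 change (R98S minus WT) in mRNA (left) and RPF (right) of the tested genes around the MYC network, by list, with filled points where the adjusted p was under 0.1 by limma and a bar at each list's median. The list medians in mRNA include 0.17 for the 40 induced targets, and *Ndrg1* among the repressed targets lies farthest left, at -2.16 in mRNA and -2.50 in RPF.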

How the data were processed

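The authors deposited 1 table of signal values for mRNA and 1 for RPF, each holding gene counts divided by a DESeq2 size factor per library. Per the paper's methods and the submitters' processing notes, the authors trimmed adapters from footprints, removed ribosomal and transfer RNA with Bowtie2, aligned reads to mm10 (GRCm38) with TopHat2 2.0.11, kept primary alignments, merged 3 technical replicates of each footprinting library, and counted footprints over coding sequences without the first 15 and last 5 codons. The tables were normalized separately, so TE has no absolute scale. The gene annotation and strand setting of the counting are not given in the sources used here. In each library 100% of the values were whole multiples of 1 read (within 0.001 reads), so whole reads were recovered for DESeq2 1.42.0 and edgeR 4.0.16 as alternatives.

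Changes were tested with limma 3.58.1 in R 4.3.3, with a variance trend, on log2(value + 1), in genes with a mean of at least 10 normalized counts over 6 libraries (11344 in mRNA, 9580 in RPF) and for TE in the 9043 genes with at least 10 in all 12 libraries. A fold change on this scale understates that of low genes. P-values are two-sided and adjusted by Benjamini-Hochberg over all genes tested, with the study's threshold of 0.1; 3 against 3 clones cannot go below 0.1 in an exact permutation test. Babel, which the study used for TE, was not run. Both libraries of a clone were paired by the clone number in their labels. Their deviations from the genotype means correlated at 0.519 on average (0.218 to 0.681), and 6 of 6 clones correlated best with themselves. For WT clone 28 that lead was narrow, at 0.218 against 0.193 with the footprints of another WT clone. Clones of the genotypes share no numbers. The fitting script was tested on simulated data. Lengths and coordinates came from GENCODE M21 (GRCm38), promoter sequences from RefSeq. Alternatives were the pseudocount (0.5 and 4), the low-count filter (none and 50), the trend, library weights, TMM scaling, removal of chromosome medians, DESeq2, edgeR, leaving out each clone and, chosen after seeing the data, the length of all exons. Named were all 9 members, up to 3 called genes in each direction per list, and the 3 nearest genes of *Myc* and of each called member; *Mycn*, *Mycl*, *Mlxip*, *Mlxipl*, *Cdkn1a*, genes called by DESeq2 alone and genes named as examples or as overlapping neighbours were added after their values were seen. The members and lists were chosen with earlier results of these data known. The values of 1 list gene are not reported here.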

Additional observations from a re-analysis of the deposited data

How the results depend on the processing

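The 9 members in 3 measures and 8 calls among list genes made 35 results, refitted under 16 alternatives in mRNA and in RPF and 17 in TE; of 567 values in all, 503 kept their sign and their side of the threshold, 39 lost a call, 11 gained 1 and 14 changed sign; 29 results never changed sign. The cause of these shifts was not tested. Genes called in mRNA numbered 787 and became 2959 with library weights, 1283 with DESeq2 and 316 to 1109 when leaving out each clone. In RPF the 743 became 1799 with library weights and 226 to 1156 when leaving out each clone. In TE the 2 became 4 without the filter, 796 with library weights, 6 with the DESeq2 interaction and 0 to 3 when leaving out each clone. A fit of TE with no replicate block, which ignores the pairing of a clone's libraries, called 3 genes and 0 members. Members called in mRNA numbered 1 and became 0 without the trend and with edgeR, 2 with chromosome medians removed, 3 with DESeq2, 4 with library weights and 0 to 2 when leaving out each clone. In RPF the 2 became 3 with library weights and 0 to 3 when leaving out each clone, and in TE the 0 became 1 (*Mxd4*) with library weights. Called list genes in mRNA numbered 3 and became 23 with library weights, 10 with DESeq2 and 1 to 8 when leaving out each clone. In RPF the 5 became 13 with library weights, 9 with DESeq2 and 1 to 8 when leaving out each clone, and in TE the 0 became 8 with library weights.

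Signs changed in mRNA with library weights for *Mga* (to 0.14) and *Mlx* (to -0.27). When leaving out each clone the mRNA difference ranged from -0.36 to 0.29 for *Mga*, from -0.090 to 0.35 for *Mlx*, from -0.49 to 0.032 for *Mnt* and from -0.41 to 0.036 for *Mxd4*. In RPF *Mnt* became -0.13 with library weights, -0.10 with chromosome medians removed and -0.33 to 0.32 when leaving out each clone, and *Mga* ranged from -0.62 to 0.10. With at least 50 counts in every library *Mxd1* and *Mxd3* gave no TE value. Dividing by the length of all exons was a choice made after seeing the data. It took the mean mRNA level per kb over the 6 clones from 217 to 99.0 for *Mxd4* and from 1408 to 760.0 for *Max*. The same step took *Mxi1* from 1135 to 437 and *Myc* from 2872 to 2471. Hence the mRNA levels compared between genes, and the mRNA ratios of *Myc* to *Max* and to the repressing sum, depend on the length used. Depth limits *Mxd1* and *Mxd3* most, with as few as 31 and 20 footprint reads.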
